A study of Mus musculus with 12 samples.

Results

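The nuclear-encoded subunits of oxidative phosphorylation were read in the RNA of whole mouse lung after bleomycin, with and without a herbal granule. Members were the genes whose symbols begin with Ndufa, Ndufb, Ndufc, Ndufs or Ndufv and a digit, are Sdha, Sdhb, Sdhc or Sdhd, or begin with Uqcr, Cox4 to Cox8 or Atp5. Of 56980 rows of the table, 105 carried such a symbol. Left out were 14 names containing -ps and Cox8b by rule, and 7 names with a mean under 1 CPM (counts scaled to the library total). The highest of these 7 averaged 0.0163 CPM. Gene levels given below also carry edgeR's TMM factors. The remaining 83 members comprised 39 genes assigned by symbol to complex I, 4 to complex II, 8 to complex III, 15 to complex IV and 17 to complex V. The lowest member, Atp5g2, averaged 3.26 CPM, and all 83 passed the filter on low counts, which kept 17827 genes. Symbols and function do not match everywhere. The protein of Ndufa4 is now assigned to complex IV, Ndufa4l2 is its paralogue, and Cox7a2l encodes a factor of respiratory supercomplexes.

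The study measured polyadenylated RNA of lung tissue from male C57BL/6 mice aged 6 to 8 weeks in 12 libraries, 4 in each of 3 groups. Control mice were given distilled water by mouth, and the labels do not say whether they received an instillation into the trachea. Model mice received 1 dose of bleomycin, 5 mg/kg into the trachea, which injures the lung and is widely used to model fibrosis, and distilled water by mouth. HBG mice, abbreviated HSBD in the sample titles, received the same bleomycin and 7 g/kg of Huashibaidu granules (HBG), a Chinese herbal preparation, by mouth. The design text starts the granules a week before bleomycin and ends them at day 28, whereas the sample text starts them on day 7 for 14 days. Euthanasia is given as day 28 in all 3 groups. The comparison of Model with Control shows which transcripts differed after bleomycin, and that of HBG with Model which differed with the granules. Whether each library came from its own animal is not in the labels, so the p-values cover only the spread among these libraries, part of which may be technical.

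Oxidative phosphorylation takes place in the inner mitochondrial membrane. Complex I (NADH dehydrogenase) and complex II (succinate dehydrogenase) feed electrons to ubiquinone, complex III (the cytochrome bc1 complex) passes them to cytochrome c, complex IV (cytochrome c oxidase) gives them to oxygen, and complex V (ATP synthase) makes ATP from the proton gradient that the other proton pumps build. Most subunits are encoded in the nucleus and imported, and a few central ones of complexes I, III, IV and V are encoded in mitochondrial DNA. In lung, type II alveolar cells and ciliated cells are known for a high content of mitochondria.

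Promoters of the members were read because transcription factors such as NRF1, GABPA of the ETS family and YY1 are known regulators of these genes. RefSeq promoter windows (GRCm38.p6, from 250 bases before to 50 after a gene's start) matched 67 of 83 members. Letters TGCGCA, found in NRF1 sites, stood on either strand in 26.9% of these members, in 8.79% of all 27025 genes with a window and in 14.2% of the genes tested here. ETS letters CCGGAAG stood in 25.4% of members, 9.93% of all and 17.4% of tested genes. YY1 letters AAGATGG stood in 16.4%, 7.28% and 7.77% in the same order. The E-box CACGTG stood in 8.96%, 8.09% and 10.8%, and GGGCGG, the core of SP and KLF sites, in 40.3%, 38.2% and 63.5%. TGCGCA and CACGTG read the same on both strands, CCGGAAG and AAGATGG can share the letters AAG, and a match is a description of letters. The median log2 fold changes of members with and without a match in Model against Control were -0.26 and -0.33 for NRF1, -0.33 and -0.29 for ETS, -0.28 and -0.31 for YY1, -0.31 and -0.31 for the E-box and -0.31 and -0.30 for SP and KLF.

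The 150 bases before the start are shown for 4 members that separated Model from Control, since the results below turn on them and they hold different matches. The Cox5b stretch is chr1:36691337-36691486 on the plus strand, with capitals marking the NRF1 letters. The Ndufb2 stretch is chr6:39592415-39592564 on the plus strand and holds none of the 5 strings. The Cox5a stretch is chr9:57521082-57521231 on the plus strand, with capitals marking the SP and KLF letters read on the other strand. The Atp5h stretch is chr11:115419920-115420069 on the minus strand, with capitals marking the ETS letters, likewise on the other strand. All are written 5′ to 3′ along the gene's strand, from RefSeq on GRCm38.p6.
Cox5b: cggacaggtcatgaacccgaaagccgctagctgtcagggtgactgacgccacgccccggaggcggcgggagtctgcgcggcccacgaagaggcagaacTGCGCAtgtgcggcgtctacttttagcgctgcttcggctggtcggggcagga
Ndufb2: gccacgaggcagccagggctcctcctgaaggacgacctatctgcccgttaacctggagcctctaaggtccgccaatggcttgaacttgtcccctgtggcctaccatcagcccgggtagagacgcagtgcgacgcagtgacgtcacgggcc
Cox5a: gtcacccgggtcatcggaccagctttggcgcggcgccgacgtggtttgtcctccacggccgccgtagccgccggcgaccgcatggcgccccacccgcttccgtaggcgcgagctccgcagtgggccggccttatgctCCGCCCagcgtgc
Atp5h: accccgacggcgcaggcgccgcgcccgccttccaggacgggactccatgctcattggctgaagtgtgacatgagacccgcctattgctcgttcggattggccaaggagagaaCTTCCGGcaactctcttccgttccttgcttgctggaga
The 4 were picked for their different matches, so they do not stand for the members as a whole.

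Control libraries held 18864801 to 27150846 estimated counts, Model libraries 19230848 to 22622447 and HBG libraries 17979899 to 20752048, so 3 counts correspond to at most 0.167 CPM and every member lay far above that. None of the 7 markers of lung identity was at 0 throughout, and their summed level was 59604 to 81324 CPM in Control and 33036 to 51976 CPM in Model, with 28285 to 66867 CPM in HBG. Control 4, Model 2 and HBG 3 stood apart in Cdkn1a, a stress-responsive cell cycle inhibitor, at 55.4, 174 and 73.5 CPM against 477 to 751 CPM in the other libraries, and member results are given with and without them. In tissue RNA, fewer cells of a type and less RNA per cell cannot be told apart.

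After bleomycin most subunits of each of the 5 complexes had a lower fitted level, and 2 passed the test. Of 83 members, 79 had a lower fitted level in Model than in Control, with a median log2 fold change of -0.31 (0.808-fold). The middle 50% of members lay between -0.42 and -0.20, whereas the median of all 17827 genes tested was 0.01 and 48.5% of them were lower. Among the 10917 genes averaging at least 10 CPM, the median was 0.03 and 43.3% were lower. Cox5b and Ndufb2 fell in edgeR's quasi-likelihood test with Benjamini-Hochberg adjustment, which makes 2 of 83 members against 0.348% of all genes tested. Unadjusted, 18 members were lower at p under 0.05 where the background was 5.32%, and 1, Atp5g2, was higher. In 10 members every Model library was below every Control library, against 4.51% of all genes. Genes of at least 10 CPM did so more often when short: 16.7% under 500 bases, 7.84% from 500 and 7.59% from 700. From 1000 bases it was 7.54% and from 2000 bases 2.50%. Members of these length classes stood at 13.3%, 12.5%, 11.8%, 14.3% and 0%. By the same classes edgeR called 1, 0, 1, 0 and 0 members. Of genes of at least 10 CPM it called 1 of 90, 1 of 204, 12 of 461, 11 of 2240 and 14 of 7922. Without Control 4, Model 2 and HBG 3, 80 members were lower with a median of -0.29, and Cox5b and Ndufb2 were again called. Leaving out Model 2 alone gave a median of -0.22, and leaving out Model 1 gave -0.40.

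**Figure D1:**
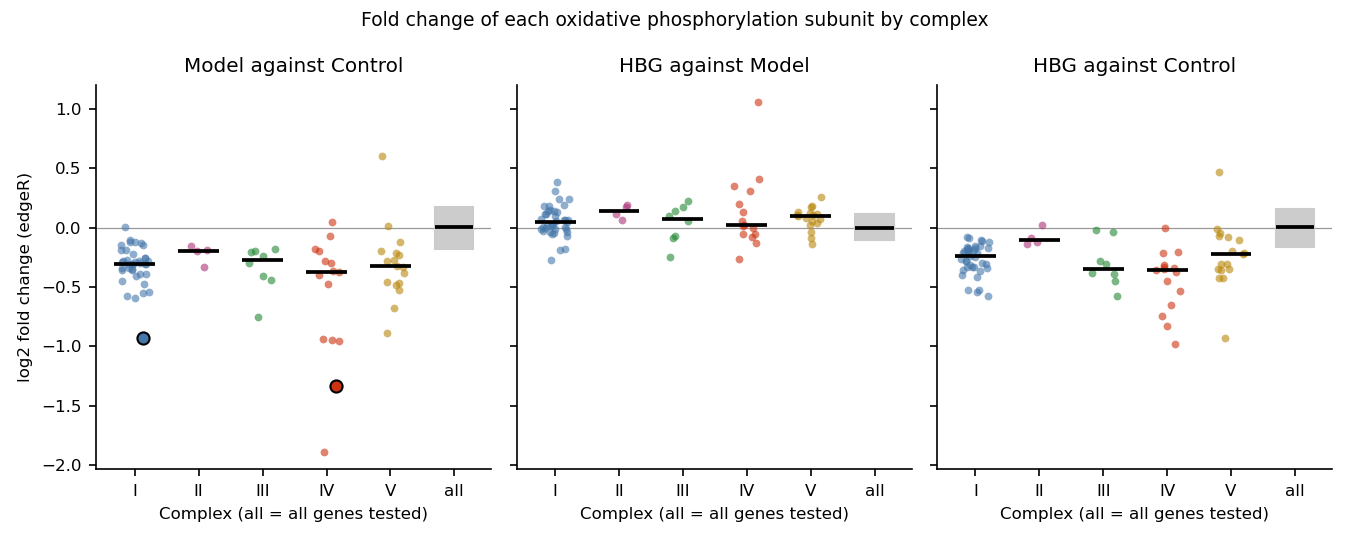
Log2 fold change (edgeR, y axis) of each of the 83 members by complex (x axis) in the 3 comparisons; black bars are medians, outlined points passed the adjusted threshold of 0.05, and the grey box spans the middle 50% of all genes tested around their median. In Model against Control the medians of complexes I to V lie between -0.38 and -0.19, and the median of all genes is 0.01.

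Complex I, the entry point for electrons from NADH, had 38 of 39 members lower in Model, with a median log2 fold change of -0.31. Ndufb2, an accessory subunit of the membrane arm (ENSMUSG00000002416), stood at 19.9, 21.5, 21.9 and 19.2 CPM in Control 1 to 4, at 11.1, 9.49, 10.6 and 12.2 CPM in Model 1 to 4 and at 14.5, 14.1, 11.2 and 16.8 CPM in HBG 1 to 4. The Control libraries were above all others, and the Model and HBG ranges overlapped. Ndufb2 fell from 20.6 ± 1.30 to 10.8 ± 1.12 CPM (SD, n = 4), a log2 fold change of -0.93 ± 0.13 (SE) with an edgeR adjusted p of 0.0116. That call was lost without Control 3 (adjusted p = 0.0607) and once counts were corrected for length and GC content (adjusted p = 0.111), at log2 fold changes of -0.90 and -0.85, and with the replicate number as a block (adjusted p = 0.0619).

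Other complex I members separated the groups without passing the adjusted test. Ndufb4c, named as a copy of the accessory subunit gene Ndufb4, stood at 32.7, 39.5, 40.7 and 26.7 CPM in Control and 26.3, 21.5, 26.5 and 20.8 CPM in Model, with HBG between 22.3 and 36 CPM. The lowest Control library lay just above the highest Model library, and the edgeR adjusted p was 0.260. Summed with Ndufb4, the Control and Model libraries overlapped, as given with the copies below. Ndufa5, an accessory subunit of the arm that takes up NADH, ranged from 34.1 to 49.7 CPM in Control and 17.9 to 33.8 CPM in Model, with 19.9 to 34.9 CPM in HBG. Ndufv1, the core subunit that binds NADH, ranged from 59.9 to 83 CPM in Control and 49.9 to 56.8 CPM in Model, and HBG spanned 42.7 to 76.3 CPM, wider than both. The fold changes of Ndufa5 and Ndufv1 were -0.59 ± 0.22 and -0.30 ± 0.17 on the log2 scale (SE). The 7 core subunits of complex I had a median of -0.30 and the 32 accessory ones -0.31.

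Ndufa4l2, a paralogue of Ndufa4 induced by low oxygen, was the exception in complex I. Its level was 29.3 ± 5.50 CPM in Control and 29.4 ± 5.25 CPM in Model (SD, n = 4), a log2 fold change of 0.01 ± 0.25 whose sign turned under several settings given in the closing section. In HBG 1 it was 12.5 CPM and in HBG 2 to 4 29.4, 28.7 and 27 CPM. Ndufa4, the complex I symbol with the highest level per length (242 CPM per kb), ranged from 108 to 151 CPM in Control and 74.0 to 119 CPM in Model, with 61.0 to 119 CPM in HBG, and these ranges overlapped.

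Complex II, which oxidises succinate and is wholly nuclear encoded, was lower in 4 of 4 members with the smallest median of the 5 complexes, -0.19. Sdhb, the iron-sulfur subunit, stood at 55.1, 86.6, 67.7 and 60.7 CPM in Control and 57.9, 51.5, 52.4 and 53.3 CPM in Model, with 71.1, 55.9, 45.7 and 73.5 CPM in HBG. Only Model 1 overlapped the Control range, and the edgeR adjusted p was 0.474 at a log2 fold change of -0.33 ± 0.16 (SE). Sdha, the subunit that binds succinate and FAD, averaged 262 ± 32.2 CPM in Control and 228 ± 18.7 CPM in Model, with 247 ± 22.6 CPM in HBG (SD, n = 4), with a log2 fold change of -0.20 ± 0.11. No complex II member reached an unadjusted p under 0.05.

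Complex III was lower in 8 of 8 members with a median log2 fold change of -0.27. Uqcrfs1, the Rieske iron-sulfur protein that takes electrons from ubiquinol, stood at 71.2, 100, 79.2 and 65.5 CPM in Control and 49.6, 38.4, 47.4 and 52.3 CPM in Model, with 60.0, 49.9, 35.7 and 66.0 CPM in HBG. Control lay above Model in all libraries, while HBG 4 reached into the Control range. The log2 fold change of Model against Control was -0.75 ± 0.19 (SE), with an edgeR adjusted p of 0.157. Uqcrh, the hinge subunit next to cytochrome c1 and the complex III member with the highest level per length (236 CPM per kb), had a fold change of -0.44 ± 0.19 with overlapping groups, 131 to 178 CPM in Control and 84.0 to 136 CPM in Model.

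Complex IV had 14 of 15 members lower, the lowest median of the complexes (-0.38) and the widest spread, its middle 50% reaching from -0.94 to -0.24. Cox5b (ENSMUSG00000061518), a subunit that binds zinc on the matrix side, stood at 75.2, 115, 102 and 70.2 CPM in Control and 41.5, 28.7, 38.8 and 35 CPM in Model, with 59.4, 39.3, 31.5 and 53.2 CPM in HBG. Every Control library was above every Model and HBG library. Cox5b fell from 90.6 ± 21.5 to 36 ± 5.54 CPM (SD, n = 4), a log2 fold change of -1.33 ± 0.22 (SE) with an edgeR adjusted p of 0.0294. Its adjusted p was 0.0798 without Control 2, 0.106 without Control 3, and 0.0633, 0.105, 0.0823 and 0.0570 without Model 1 to 4, at log2 fold changes of -1.41 to -1.20, and 0.111 with the replicate number as a block.

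Cox8a and Cox5a had the next clearest separations in complex IV. Cox8a, the smallest transmembrane subunit, stood at 124, 122, 134 and 106 CPM in Control and 86.1, 49.98, 61.7 and 55.9 CPM in Model, with 87.6, 68.3, 47.3 and 87.3 CPM in HBG. Its log2 fold change was -0.94 ± 0.21 (SE) with an edgeR adjusted p of 0.103, and once counts were corrected for length and GC content it was 0.0397. Cox5a, a matrix-side neighbour of subunit 4, stood at 62.4, 91.4, 81.3 and 61.6 CPM in Control and 48.3, 22.7, 51.9 and 29.7 CPM in Model, with 58.5, 41.4, 30.7 and 58 CPM in HBG. For Cox8a and Cox5a the Control libraries lay above all Model and HBG libraries. Cox4i1, the common form of subunit 4 and the member with the highest level per length of all (335 CPM per kb), ranged from 240 to 313 CPM in Control and 193 to 294 CPM in Model, with 174 to 282 CPM in HBG, and a log2 fold change of -0.20 ± 0.17.

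**Figure D2:**
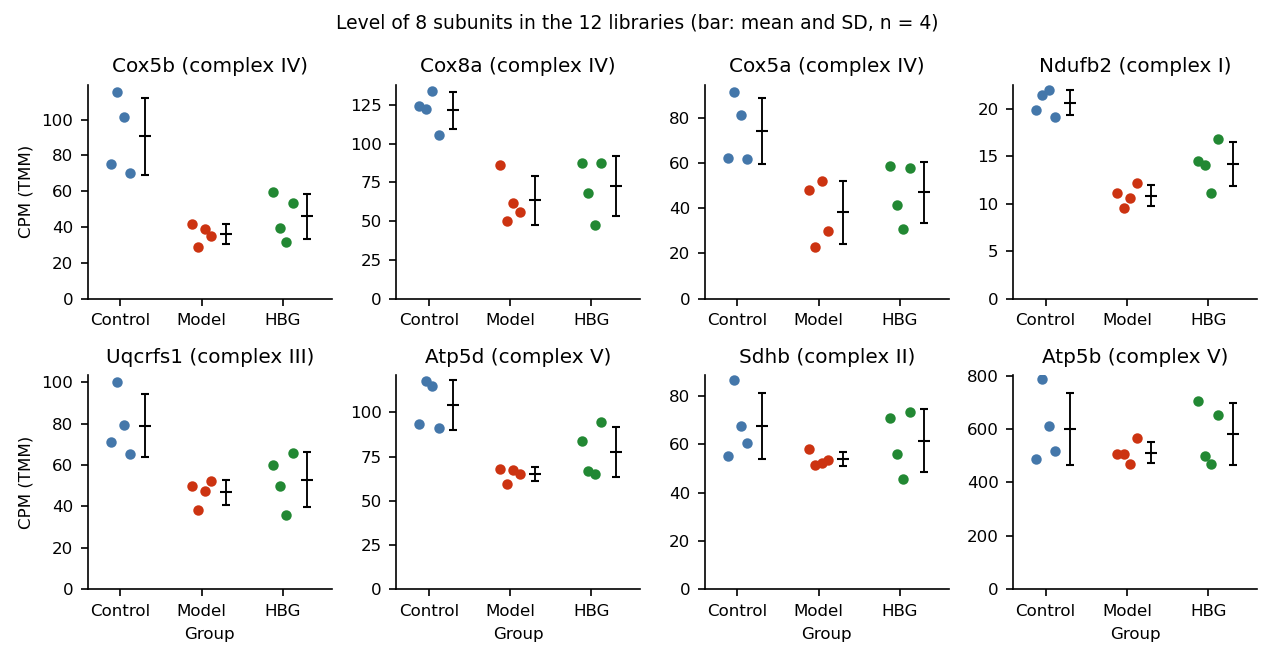
Level (CPM with TMM factors, y axis from 0) of 8 subunits in the 4 libraries of each group (points), with mean and SD beside them. Cox5b, Cox8a, Cox5a, Ndufb2, Uqcrfs1 and Atp5d show Control above Model in every library, while Sdhb and Atp5b overlap.

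Complex V had 15 of 17 members lower, with a median log2 fold change of -0.33. Atp5d, the delta subunit of the rotating stalk, stood at 93.4, 118, 115 and 90.9 CPM in Control and 67.8, 59.6, 67.6 and 65.1 CPM in Model, with 83.7, 66.7, 65.4 and 94.6 CPM in HBG. Control and Model did not overlap, and HBG reached into both. The log2 fold change of Atp5d was -0.68 ± 0.13 (SE) with an edgeR adjusted p of 0.0646, and 0.0378 in a fit of the Control and Model libraries alone. Atp5k, subunit e of the membrane part, stood at 25.2, 52.0, 48.3 and 34.2 CPM in Control and 28.9, 14.1, 23.4 and 19.8 CPM in Model, with Model 1 above Control 1 and a fold change of -0.89 ± 0.26. Atp5h, subunit d of the peripheral stalk, ranged from 137 to 170 CPM in Control and from 110 to 137 CPM in Model, its highest Model library just under its lowest Control library.

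Other complex V members overlapped between Control and Model. Atp5b, the beta subunit that forms ATP and the complex V member with the highest level per length (295 CPM per kb), stood at 486, 786, 610 and 519 CPM in Control and 506, 507, 467 and 566 CPM in Model, with 705, 499, 468 and 654 CPM in HBG, with overlapping groups and a log2 fold change of -0.23 ± 0.17 (SE) that was -0.08 without Control 2. Atp5pb, a subunit of the peripheral stalk, had a fold change of 0.02. Atp5g2, 1 of 3 genes for the proton-carrying ring subunit c, was the only member with a higher fitted level by more than 0.1, from 2.50 ± 0.577 to 3.81 ± 0.683 CPM (SD, n = 4), with overlapping libraries and an edgeR adjusted p of 0.357. Its sister genes Atp5g1 and Atp5g3 had fold changes of -0.49 and -0.52 on the log2 scale.

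Isoforms made mainly in heart and skeletal muscle had the widest spread of all members. Cox7a1 stood at 3.83, 23.5, 13.0 and 7.45 CPM in Control and 1.87, 2.47, 1.54 and 7.05 CPM in Model, with 9.84, 3.41, 1.46 and 12.3 CPM in HBG. Cox6a2 stood at 17.3, 83.7, 47.0 and 34 CPM in Control and 9.12, 21.7, 7.69 and 56.0 CPM in Model, with 46.4, 19.2, 8.84 and 51.3 CPM in HBG. Their log2 fold changes in Model against Control were -1.89 ± 0.73 and -0.95 ± 0.71 (SE), and the groups overlapped for both. For Cox6a2 the value was -0.48 without Control 2 and -1.83 without Model 4, and for Cox7a1 -1.34 and -2.61. The summed level of the 15 cardiac muscle markers was 940, 6196, 3244 and 2623 CPM in Control and 587, 1439, 388 and 3581 CPM in Model, with 3678, 1325, 390 and 3496 CPM in HBG, highest and lowest in the libraries where Cox6a2 was. None of the markers was at 0 throughout, Myh6 (the atrial and adult mouse heart myosin) reached 2059 CPM in Control 2, and 14 of 14 tested were lower in Model, with 0 called by edgeR and 0 at an unadjusted p under 0.05. Skeletal muscle markers summed to 23.8 to 112 CPM in Control and 10.9 to 71.4 CPM in Model, with 6.70 to 63.2 CPM in HBG. The part of muscle RNA in the fold changes of Cox6a2 and Cox7a1 was not tested. Cox6a1, the common partner of Cox6a2, ranged from 97.2 to 130.0 CPM in Control and 83.3 to 115 CPM in Model, with 68.4 to 108 CPM in HBG.

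**Figure D3:**
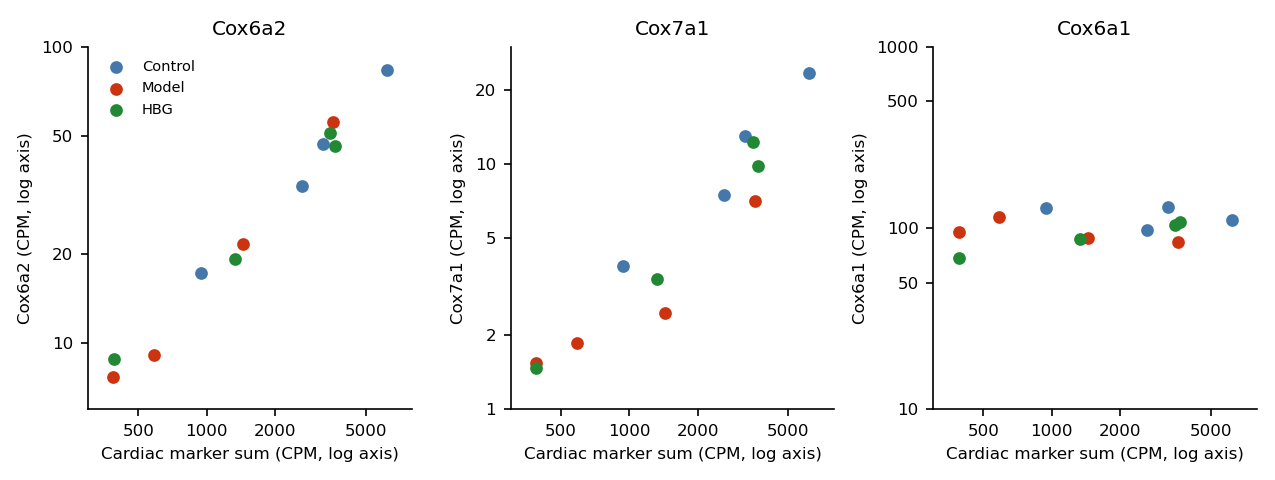
Level of Cox6a2, Cox7a1 and Cox6a1 (CPM, log y axis) against the summed level of the cardiac markers (CPM, log x axis) in the 12 libraries, coloured by group. Cox6a2 and Cox7a1 are highest in Control 2, where the cardiac sum is 6196 CPM, and lowest in Model 3 and HBG 3, where it is 388 and 390 CPM, while Cox6a1 spans a narrow range.

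Other tissue-restricted members behaved differently. Cox4i2, a form of subunit 4 known in lung, averaged 39.7 ± 7.48 CPM in Control and 35 ± 7.90 CPM in Model, with 32 ± 11.5 CPM in HBG (SD, n = 4). Cox6b2, known from testis, averaged 17.2 ± 7.54, 17.8 ± 8.40 and 14.8 ± 5.73 CPM in the same order. Their differences between groups were within the spread of the libraries, and the groups overlapped. Without these 4 isoforms, complex IV was lower in 11 of 11 members with the same median of -0.38. Among markers of brown fat, another tissue rich in mitochondria, Elovl3 was at 0 in all 12 libraries, and the list summed to 15.1 to 40.9 CPM in Control and 15.1 to 26.8 CPM in Model, with 10.9 to 76.7 CPM in HBG.

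Libraries of the same group differed in the subunits as a whole. A score was taken as the mean over the 83 members of log2 CPM minus its mean over the 12 libraries, and was 0.08, 0.44, 0.37 and 0.00 in Control 1 to 4, 0.06, -0.45, -0.04 and -0.16 in Model 1 to 4 and 0.12, -0.11, -0.50 and 0.19 in HBG 1 to 4. The group means were 0.22 ± 0.22, -0.15 ± 0.22 and -0.08 ± 0.31 (SD, n = 4), and the groups overlapped. Control 2 and 3 were the high libraries and Model 2 and HBG 3 the low ones. Model 2 was the lowest library for 32 members and HBG 3 for 39, while Control 2 was the highest for 46 and Control 3 for 26. In Model 2, 79 members lay below their mean, and in HBG 3, 81 did.

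All 5 complex scores were above 0.33 in Control 2 and below -0.20 in Model 2 and HBG 3. The complex IV score ran from 0.06 to 0.66 in Control and from -0.56 to -0.10 in Model, and did not overlap between these groups, while the scores of complexes I, II, III and V did. Without the tissue-restricted isoforms it overlapped too, at 0.10 to 0.50 in Control and -0.55 to 0.11 in Model, a score added after the values were seen. The complex II score lay between -0.06 and 0.33 in Control, between -0.20 and 0.05 in Model and between -0.33 and 0.24 in HBG. Beside these scores, ciliated cell markers were 1045 to 1357 CPM in Control and 778 to 1353 CPM in Model, with 540 to 1508 CPM in HBG, and type II cell markers 19634 to 27796, 20429 to 27520 and 14347 to 24056 CPM. Club cell markers were 52020 to 69792 CPM in Control and 21468 to 36739 CPM in Model, with 21652 to 57691 CPM in HBG. Monocyte-derived macrophage markers were 731 to 810, 728 to 3550 and 779 to 2019 CPM, and alveolar macrophage markers 371 to 430, 370 to 831 and 395 to 1228 CPM. In Model against Control 8 of 8 ciliated markers were lower (median log2 fold change -0.26) and 1 of 7 type II markers (0.23). In edgeR 0 of either list were called, and 0 and 1 had an unadjusted p under 0.05, against 11.7% of all genes. The ciliated score, taken like that of the members, was lowest in HBG 3 (-1.22) and Model 2 (-0.48). The type II score was 0.25 and 0.14 in these libraries. The part of cell composition in the member fold changes was not tested.

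**Figure D4:**
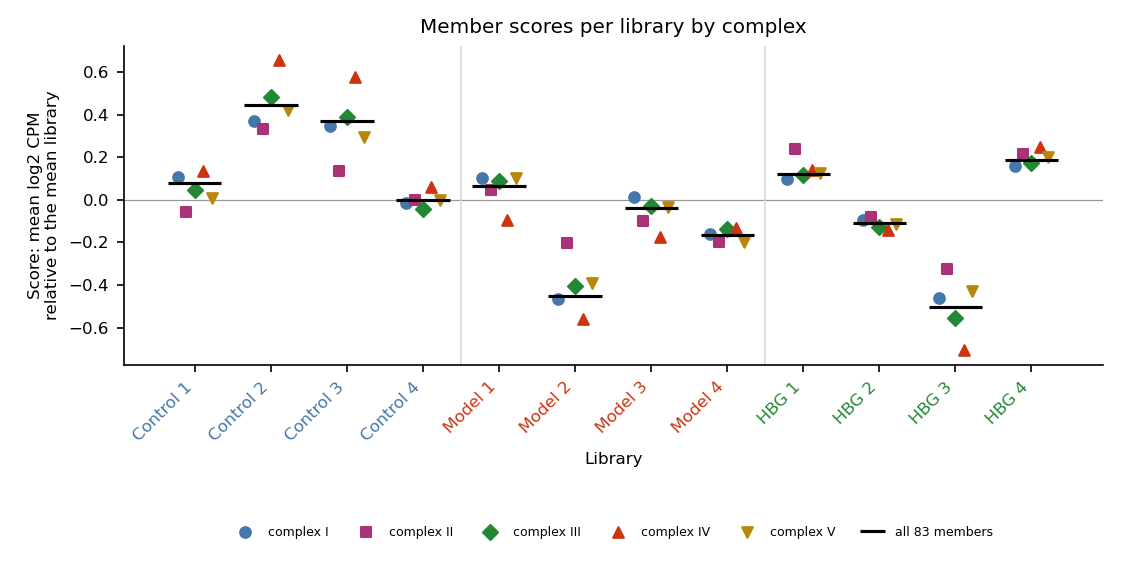
Score of the members of each complex (symbols) and of all 83 members (black bars) in each library, as mean log2 CPM relative to the mean library (y axis). Model 2 (-0.45) and HBG 3 (-0.50) lie lowest and Control 2 (0.44) and Control 3 (0.37) highest, and all 5 complexes lie below -0.20 in Model 2 and HBG 3.

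Most members are short transcripts, which is a property of the family that the choice of members did not use. Their median length in the table was 732 bases against 2696 bases for all genes tested, and 67.5% were under 1000 bases against 9.38% of all. GC content was alike, with medians of 50.4% and 49.3%. Among all genes of at least 10 CPM, short ones had lower medians in Model: the median log2 fold change was -0.30 under 500 bases, -0.16 from 500 to under 700, -0.11 from 700 to under 1000, -0.03 from 1000 to under 2000 and 0.06 from 2000 bases. Without that minimum the first 2 classes had medians of -0.09 and -0.19, so the order by length did not hold for the shortest genes. Members of the same length classes had medians of -0.40 (15 genes), -0.30 (24 genes), -0.28 (17 genes), -0.28 (21 genes) and -0.27 (6 genes), each below that of all genes of the class. In edgeR, 4, 5, 7, 2 and 0 of these members were lower at an unadjusted p under 0.05. Genes of at least 10 CPM gave 27 of 90, 25 of 204, 52 of 461, 192 of 2240 and 225 of 7922, by class. Across the 83 members, which share libraries, the fold change and log2 length had a Pearson r of 0.18 and a Spearman rho of 0.27, as a description across genes. Once counts were corrected for length and GC content, 74 members were lower, the median was -0.22 against 0.01 for all genes, and Cox5b and Cox8a were called.

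**Figure D5:**
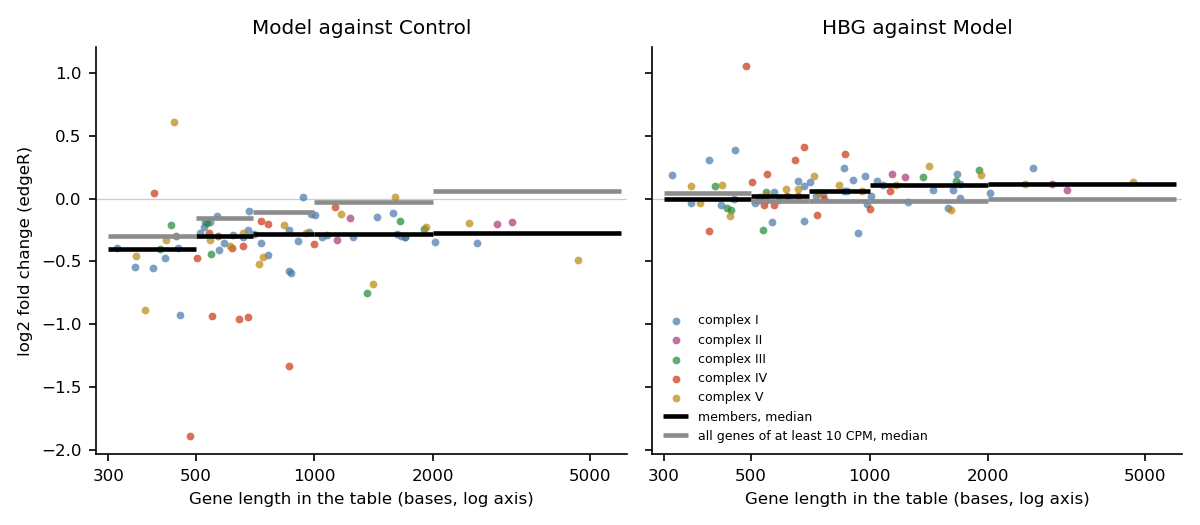
Log2 fold change (edgeR, y axis) of each member against its length in the table (bases, log x axis), with medians per length class for members (black) and for all genes of at least 10 CPM (grey). In Model against Control the grey medians climb from -0.30 to 0.06 with length, and the black ones stay between -0.40 and -0.27.

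Core and accessory subunits were alike in Model against Control and less so in HBG. The 20 members listed as core (7 of complex I, 4 of complex II, Uqcrfs1 and 8 of complex V) had a median log2 fold change of -0.29, and the 63 accessory members -0.31. In HBG against Control these medians were -0.13 and -0.31, with 18 of 20 core and 63 of 63 accessory members lower. Core members were also longer, with a median of 1387 bases against 659 bases, so role and length cannot be told apart here. Complex II, with the smallest change in Model against Control, had a median length of 2065.5 bases. The other complexes had 541 to 763 bases, with 645 bases for complex IV. In Model against Control, complex II had a median log2 fold change of -0.19. Members of 1000 to under 2000 bases had -0.28 and those of 2000 bases or more -0.27, complex II included. The part of length in the complex II median was not tested.

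Near-identical copies took few counts. Of 81 members with a protein-coding transcript in GENCODE M21, 23 had another gene aligned at 95% identity or more over at least 150 bases and 50% of the copy, and in 2 of them the copies exceeded 10% of the member's own level in Control. For Ndufb4c and Ndufb1 no protein-coding transcript was found in GENCODE M21. Ndufb4 averaged 13.7 CPM in Control beside 34.8 CPM for Ndufb4c, so how reads were divided between them is uncertain. Their sum was 48.5 ± 7.51 CPM in Control and 35.1 ± 4.83 CPM in Model (SD, n = 4). Ndufb4 and Ndufb4c stood at 12.1 and 26.7 CPM in Control 4 and at 13.2 and 26.3 CPM in Model 1. Their sum was therefore higher in Model 1 than in Control 4, and the groups overlapped. Copies of Atp5l, a membrane subunit of ATP synthase, summed to 19.4 CPM in Control and 9.38 CPM in Model. For Cox5b the copy stood at 0.0125 CPM in Control, and Ndufb2 had none.

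With the granules most subunits had a slightly higher level than in Model, and no member was called. Of 83 members, 58 were higher in HBG than in Model with a median log2 fold change of 0.06, against 0.00 for all genes. The Model libraries are shared with Model against Control, where they enter with the opposite sign, so these comparisons are not independent. In edgeR, 0 members passed the adjusted threshold (0% of all genes), 1 had an unadjusted p under 0.05 against 2.43% of all genes, and 0 separated the groups against 1.12%. DESeq2 and limma-voom called 0 members too. Medians by complex were 0.05 for I, 0.14 for II, 0.07 for III, 0.02 for IV and 0.10 for V. Without Model 2 the median over members was -0.02, and without HBG 4 it was -0.02 as well. Without Control 4, Model 2 and HBG 3 together it was 0.09, with 63 members higher and 0 called.

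The 3 members with the smallest p in HBG against Model were Ndufb2, Uqcrc2 and Atp5d. Ndufb2 averaged 14.1 ± 2.32 CPM in HBG and 10.8 ± 1.12 CPM in Model (SD, n = 4), a log2 fold change of 0.38 ± 0.13 (SE) with an unadjusted p of 0.0139 and an adjusted p of 0.9999 in edgeR. Uqcrc2, a large matrix-side subunit of complex III, stood at 120, 162, 142 and 124 CPM in Control and 117, 113, 107 and 126 CPM in Model, with 141, 126, 121 and 153 CPM in HBG. Its fold change was 0.22 ± 0.11 with overlapping groups. Atp5d had a fold change of 0.25 ± 0.13.

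Set against Control, most subunits were lower in HBG. This comparison shares its Control libraries with that of Model. In it 81 of 83 members were lower with a median log2 fold change of -0.28, and 0 were called by edgeR where 0.151% of all genes were. Unadjusted, 14 were lower at p under 0.05 against 4.66% of all genes, and 6 separated the groups (Ndufb2, Ndufa3, Cox5b, Cox8a, Cox5a and Atp5k) against 3.92%. Genes of at least 10 CPM did so more often when short: 20% under 500 bases, 12.7% from 500 and 10.2% from 700. From 1000 bases it was 7.46% and from 2000 bases 2.10%. Members of these length classes stood at 20%, 8.33%, 5.88%, 0% and 0%. Lower at an edgeR p under 0.05 were 2, 5, 4, 3 and 0 of them. Genes of at least 10 CPM gave 21 of 90, 26 of 204, 53 of 461, 192 of 2240 and 206 of 7922. The smallest adjusted p was that of Cox5b, 0.154, with 45.9 ± 12.7 CPM in HBG (SD, n = 4) and a log2 fold change of -0.98 ± 0.22 (SE). DESeq2 called 2 members, Cox5b and Ndufb2, and limma-voom with sample weights called Cox5b. Of all genes, DESeq2 called 145 lower and 53 higher of 20323, and limma-voom 92 lower and 9 higher of 17827. Without Control 4, Model 2 and HBG 3, 81 members were lower with a median of -0.25 and edgeR called 0, and without HBG 3 alone the median was -0.15. Medians by complex were -0.24 for I, -0.10 for II, -0.35 for III, -0.36 for IV and -0.22 for V. The HBG mean lay between those of Model and Control for 56 members with Control higher, below both for 25 and above both for 1, while Control had the highest mean for 78. These positions use the same libraries as the comparisons above and were not tested.

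Genes that build, feed or accompany the respiratory chain were read from fixed lists. Complex I assembly factors were lower in Model in 15 of 15 tested genes with a median log2 fold change of -0.11, and assembly factors of the other complexes in 26 of 34, median -0.13. In edgeR 0 genes of either list were called, and 4 and 6 had an unadjusted p under 0.05, against 11.7% of all genes. Among 12 other respiratory chain proteins 10 were lower, median -0.27, and 1 fell: Ndufab1, the acyl carrier protein that is also a complex I subunit, went from 59.8 ± 7.5 to 31.5 ± 5.95 CPM (SD, n = 4), edgeR adjusted p = 0.0490. Its symbol lies outside the pattern that chose the members. Mitochondrial ribosomal proteins were lower in 64 of 78, median -0.13. In edgeR 2 of them were called, and 9 had an unadjusted p under 0.05, all lower. Of all genes tested in this comparison, 0.348% were called. An unadjusted p under 0.05 was found in 11.7% of all genes, 5.32% with a lower level. Mrps34 went from 24.8 ± 1.69 to 13.0 ± 1.68 CPM and Mrps24 from 22.1 ± 2.37 to 8.96 ± 1.95 CPM, both of the small ribosomal subunit, with edgeR adjusted p of 0.00621 and 0.00671. Mrps34 was called by edgeR in HBG against Control too, at an adjusted p of 0.0126, where 0.151% of all genes tested were called.

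The 13 mitochondrially encoded subunits, partners of the members in the same complexes, had 12 lower in Model with a median of -0.14, 0 called by edgeR and 2 at an unadjusted p under 0.05. In HBG they were lower than in Model in 11 of 13, median -0.35, and lower than in Control in 13 of 13, median -0.59. In edgeR 0 were called, and 1 and 4 had an unadjusted p under 0.05. Of all genes, 2.43% and 8.25% had such a p, and 11.7% in Model against Control. The nuclear members had medians of 0.06 and -0.28 in HBG against Model and against Control. Against Model the median of the mitochondrially encoded subunits was -0.205 without HBG 3, -0.19 without Model 4 and -0.53 without Model 2. In Model against Control it turned to 0.05 without Model 2. mt-Co2 averaged 180 ± 36.4, 87.3 ± 33.9 and 110 ± 66.0 CPM in Control, Model and HBG (SD, n = 4), and mt-Atp8 772 ± 330, 437 ± 152 and 314 ± 27.2 CPM.

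In the lists of metabolism, import and biogenesis edgeR called 0 genes in Model against Control. The tricarboxylic acid cycle was lower in Model in 16 of 18 genes (median log2 fold change -0.17), fatty acid oxidation in 15 of 17 (-0.24), outer membrane and import genes in 16 of 19 (-0.14) and regulators of mitochondrial biogenesis in 14 of 19 (-0.06). Of these lists 1, 2, 2 and 0 genes had an unadjusted p under 0.05. Of all genes tested, 11.7% had such a p in this comparison, 5.32% with a lower level. In HBG against Model, 17 of 17 fatty acid oxidation genes were higher, where 49.9% of all genes were lower, median 0.14. In edgeR 0 of them were called and 1 had an unadjusted p under 0.05, against 2.43% of all genes. Without HBG 1 the median was 0.07 with 14 higher, and without HBG 3 it was 0.24. In Model against Control glycolysis had the opposite sign, with 3 of 16 genes lower and a median of 0.10. In edgeR 0 of the 16 were called and 3 had an unadjusted p under 0.05, against 11.7% of all genes. Eno1 (enolase) averaged 121 ± 6.92 CPM in Control and 170 ± 30.1 CPM in Model and Pkm (pyruvate kinase) 313 ± 27.7 and 385 ± 32.1 CPM (SD, n = 4), with edgeR adjusted p of 0.266 and 0.312.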

How the data were processed

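The values are estimated counts per gene, deposited by the authors in 1 table with a gene length per row. The header names no unit, which was read from the values: 10.0% to 15.1% of a library's values were not whole. The deposited group means, a signal column per group that the authors averaged from the libraries, were not used. STAR 2.7.9a and HISAT2, featureCounts 2.0.1 and HTSeq, fastp, cutadapt and Trimmomatic 0.39, DESeq2 1.34.0 and FastQC 0.11.9 are named without roles, per the submitters' processing notes, beside both GRCm39 and mm10. The counting tool and build are not given in the sources used here. File coordinates are therefore not used, and promoters come from RefSeq (GRCm38.p6).

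Counts were rounded and fitted over all 12 libraries with edgeR 4.0.16 (R 4.3.3, limma 3.58.1): TMM factors, filterByExpr, the quasi-likelihood F test with group as the only term, two-sided, Benjamini-Hochberg over 17827 genes, threshold 0.05. The test was checked on simulated counts. CPM carry TMM factors, except in the choice of members and the floors of 3 counts, and the score uses log2 CPM with a prior count of 2. Floors of 3 counts cover counting error only. Members, gene lists, core assignment, marker lists (cardiac, skeletal muscle, brown fat, ciliated, type II, club, alveolar and monocyte-derived macrophage, lung identity) and tests were chosen with earlier results of these data known. Named were members past the threshold, the 2 of smallest p and the 1 of highest level per length in each complex, the 3 of smallest p in the other comparisons, members whose Control and Model libraries did not overlap, tissue-restricted isoforms, and of each other list the genes of smallest p. Others, such as Cox6a1, Atp5g1 and Atp5g2, were chosen after their values were seen.

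Alternatives were limma-voom with sample weights, DESeq2 1.42.0, upper-quartile and RLE factors, other filters, the compared groups only, the replicate number as a block, a GC and length correction, and libraries left out, which for the mitochondrially encoded and fatty acid oxidation lists was added after seeing the data. Same-numbered libraries did not deviate together throughout (correlations -0.357 to 0.482), so the numbers were not taken as pairs.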

Additional observations from a re-analysis of the deposited data

Results flagged for a closer look

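In groups of 4 libraries, 4 of 69 groups of named members and 0 of 18 groups of scores had a library whose gap to the others exceeded Dixon's 95% critical value, where chance gives about 1 in 20. Ndufv1 stood at 49.9 CPM in Model 2 against 56.5 to 56.8 CPM in the other Model libraries. Atp5h stood at 110 CPM in Model 2 against 133 to 137 CPM. Model 2 was also the library with the lowest member score of its group. Ndufa4l2 stood at 12.5 CPM in HBG 1 against 27 to 29.4 CPM in HBG 2 to 4. Cox7a1 stood at 7.05 CPM in Model 4 against 1.54 to 2.47 CPM in the other Model libraries, and the summed cardiac markers were 3581 CPM in Model 4 against 388 to 1439 CPM in those libraries.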

How the results depend on the processing

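The direction of the members' median log2 fold change held under all alternatives run in Model against Control (-0.40 to -0.22) and HBG against Control (-0.37 to -0.15). Members called in Model against Control numbered 2, but 7 with DESeq2, 6 with limma-voom and sample weights, 3 with only the compared groups, 0 with the replicate block (lowest adjusted p 0.0619), 0 with the GC and length correction and the replicate block, and 0 to 2 with a library left out. The cause of these differences was not tested. Of all genes, 422 of 17670 were called with DESeq2, 1079 of 17827 with limma-voom and 70 of 17321 with only the compared groups. The 6 members of limma-voom, Atp5g2 among them, were near the share of all genes that limma-voom called. Of 17827 genes edgeR called 62, and 25 with the replicate block. The replicate numbers were not shown to pair the libraries, and of 8 libraries 1 correlated best with its own number in Model against Control, 4 in HBG against Model and 0 in HBG against Control. In HBG against Control, 2 members were called by DESeq2 and 1 by limma-voom, and 0 otherwise, with the block too. In HBG against Model no alternative called a member, and the median ran from -0.0197 to 0.168, the latter without HBG 3, and was below 0 only without Model 2 (-0.0197) and without HBG 4 (-0.0184). All genes called in Model against Control were 62 in edgeR, 422 in DESeq2, 1079 in limma-voom and 25 with the replicate block. The small difference of Ndufa4l2 in Model against Control turned sign with limma-voom (-0.12), upper-quartile factors (-0.0221), a minimum of 1 CPM (-0.0033), the replicate block (-0.0166), without the 3 libraries that stood apart (-0.001), and without Control 2, Control 4 or Model 4 (-0.12 to 0.10 over the libraries left out). That of Cox6b2 turned sign without Control 4, Model 1 or Model 3 (-0.23 to 0.28 over the libraries left out).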

Other observations

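Cox8b, left out of the members by rule and known from heart and brown fat, averaged 8.23 ± 5.48 CPM in Control, 1.91 ± 1.79 CPM in Model and 5.42 ± 4.64 CPM in HBG (SD, n = 4), with overlapping groups. It stood at 15.2 CPM in Control 2, where the cardiac markers were highest, and at 0.407 and 0.709 CPM in Model 3 and HBG 3, where they were lowest.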
